A study of Mus musculus with 8 samples.

Results

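The genes described are 32 genes of mitochondrial and peroxisomal fatty acid oxidation, chosen by symbol from what their products do, with earlier results of these data known, among 18088 genes in the count table. All 32 were found there and all 32 passed the filter on low counts, which left 17972 genes for testing. RNA sequencing covered adipocytes differentiated from 3T3-L1, a mouse preadipocyte line that accumulates lipid droplets in culture, with the genotype labelled wildtype. Cells of 4 libraries were transfected with siRNA directed against ERK3 (siERK3), and cells of the other 4 with a nontargeting siRNA (siNTC). Both groups received the same dose of 1.25 nM siRNA per square centimeter and the same transfection reagent, after detachment, and were used 48 h later. Each siRNA reagent was a mixture of several sequences. The sources do not say whether replicates were separate differentiations, transfections or dishes, so the spread behind each p-value may be technical, and the p-values speak only of these 8 libraries.

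Fatty acids enter mitochondria as acylcarnitines. CPT1 on the outer membrane makes the acylcarnitine, the carrier SLC25A20 moves it across the inner membrane, and CPT2 returns it to CoA. An acyl-CoA dehydrogenase, a hydratase, a hydroxyacyl-CoA dehydrogenase and a thiolase then shorten the chain, and the electrons taken by the dehydrogenase pass through the electron transfer flavoprotein (ETF) and its dehydrogenase to ubiquinone. Peroxisomes hold a parallel pathway for very long and branched chains, which starts with an oxidase in place of the dehydrogenase. White adipocytes oxidize only a small part of the fatty acids they store, while in brown adipocytes this pathway feeds heat production.

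Most of the 32 genes were expressed at a lower level after ERK3 depletion. With the quasi-likelihood test of edgeR and a threshold of 0.05 on the p-value adjusted over all genes, 22 (68.8%) were lower and 3 (9.38%) were higher in siERK3 adipocytes, and 7 were not called. Among all genes tested, 48.7% were called, 23.8% lower and 24.9% higher. The 3 higher genes were Cpt1a, Acadl and Acaa1a, and the lowest fold change belonged to Hadhb, a subunit of the trifunctional protein. The median log2 fold change of siERK3 over siNTC (log2FC, given below with its standard error, SE) was -0.29 for the 32 genes, while that of the 17972 genes tested was 0.00095. Normalized levels (CPM, counts scaled to the TMM-adjusted library total) of the groups did not overlap for 24 of the 32 genes, where 43.2% of all genes tested did not overlap. Only Cpt1a, Acad11 and Hadhb among the 32 were both called and changed at least 2-fold, a rule met by 6.38% of all genes tested. The RNA comes from whole cultures, in which fewer cells of a type and less RNA per cell cannot be told apart.

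The steps differed in how many genes were called. All 3 genes of electron transfer were lower, and 7 of 8 genes of the later mitochondrial steps (hydration to thiolysis, with auxiliary enzymes). Of the acyl-CoA dehydrogenases, 5 of 7 were lower and 1 was higher, and of the carnitine shuttle, 3 of 5 were lower and 1 was higher. Peroxisomal genes were called least often, with 4 of 9 lower and 1 higher. Of them 44.4% were not called, near the 51.3% of all genes tested. By direction, 44.4% of them were lower and 11.1% higher, against 23.8% and 24.9% of all genes tested. Median log2FC values were -0.54 for electron transfer, -0.48 for the later mitochondrial steps, -0.33 for the carnitine shuttle, -0.31 for the dehydrogenases and -0.05 for the peroxisomal genes. These counts and medians describe the groups of genes, and the difference between groups of genes was not itself tested.

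**Figure D1:**
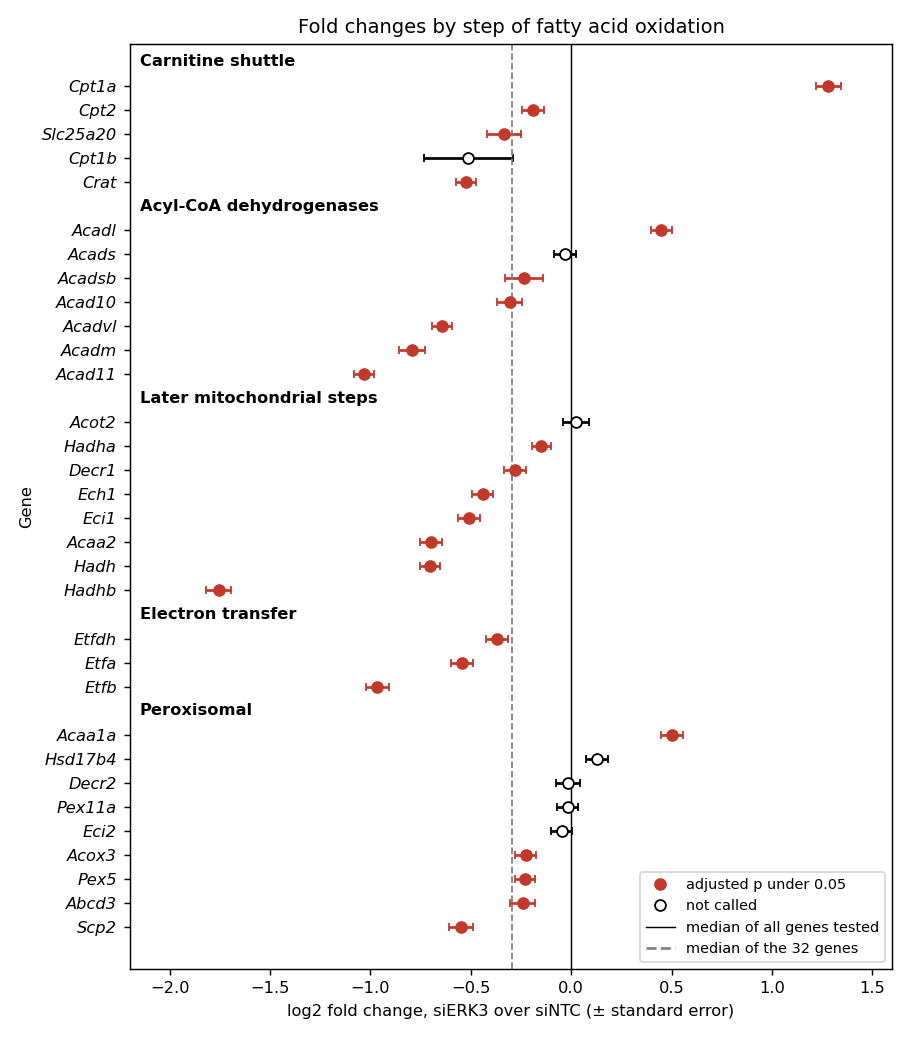
Fold changes (log2, siERK3 over siNTC) of the 32 genes, grouped by step, with the standard error from edgeR (4 libraries per group); filled points passed an adjusted p of 0.05 and open points did not. Hadhb (-1.75) lies farthest left and Cpt1a (1.28) farthest right, while the peroxisomal genes lie around 0 (median -0.05).

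The levels of the genes of a step were also summed in each library. For electron transfer, the sum was 372 to 409 CPM in the siERK3 libraries, against 606 to 649.8 CPM in the siNTC libraries. The later mitochondrial steps summed to 953 to 976 CPM in siERK3 and to 1291 to 1363 CPM in siNTC libraries. The peroxisomal genes summed to 1383 to 1413 CPM in siERK3 and to 1432 to 1511 CPM in siNTC libraries, so that the groups lay close to each other without overlapping. The fall of the peroxisomal sum turns with the scaling. As a share of all counts, with library sizes only, it was 0.141 to 0.148% in siERK3 and 0.141 to 0.145% in siNTC libraries, and the groups overlapped. All 32 genes together took 0.444 to 0.455% of the counts of a siERK3 library, against 0.523 to 0.543% of a siNTC library.

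**Figure D2:**
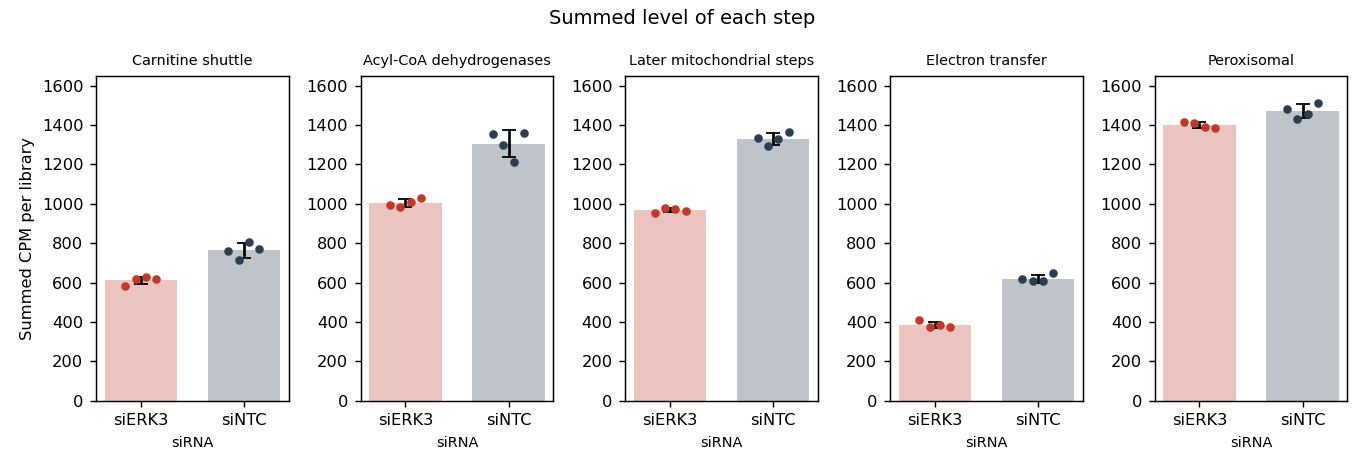
Summed CPM of the genes of each step in every library, with bars for the mean, error bars for the SD and points for the 4 libraries of each group. The siERK3 libraries lie below the siNTC libraries in each panel, by the widest margin relative to the level for electron transfer (mean of 385 CPM in siERK3 against 619.6 CPM in siNTC); for the peroxisomal genes this order is lost with library sizes only.

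Facts of the whole libraries bear on these values. Total counts were 9887357 to 9943572 per siERK3 library and 9854522 to 9920350 per siNTC library. Mapk6, which encodes ERK3, was at 69.6 ± 4.80 CPM in siERK3 and at 579 ± 18.1 CPM in siNTC adipocytes (SD, n = 4 libraries each). The calls in the marker lists stand beside 23.8% lower and 24.9% higher among all genes tested. Of the adipocyte markers, 9 of 9 were lower, and their sum was 17092 to 18195 CPM in siERK3 and 29763 to 32049 CPM in siNTC libraries. All 10 interferon-stimulated genes of a short list were higher, with a sum of 3504 to 3665 CPM in siERK3 and 101 to 110.03 CPM in siNTC libraries. Every gene of the count table was above 1 CPM in at least 4 libraries. Listed genes near 0 in siNTC, such as Rsad2 (0 to 3 counts per siNTC library) and Mx1 (0 to 2), entered only through the siERK3 libraries. For such genes, the direction was set by that rule. The preadipocyte markers found in the table (4 of 5) were lower, at 39.0 to 42.2 CPM in sum in siERK3 and 109 to 119 CPM in siNTC libraries. Macrophage and leukocyte markers were at or near the lower end of the table, with 2 of 6 listed there and a sum of 6.53 to 9.97 CPM in siERK3 and 6.82 to 9.92 CPM in siNTC libraries. Of these, Cd68 was higher, at 1.74 ± 0.31 CPM in siERK3 and 0.83 ± 0.27 CPM in siNTC adipocytes (SD, n = 4 each; log2FC 1.05, edgeR adjusted p = 0.00426), and Csf1r was not called (log2FC -0.08). For Cd68, only replicate 1 of the siNTC libraries was above 1 CPM (1.15 CPM). The gene thus entered the count table only with the siERK3 libraries, and its call carries that limit. Of the endothelial markers, 1 of 5 was listed and not called (1.17 to 1.58 CPM in siERK3 and 0.517 to 1.26 CPM in siNTC libraries). The part of the adipocyte and interferon-stimulated genes' changes in those of fatty acid oxidation was not tested.

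Within the carnitine shuttle, the genes of the CPT1 isoforms parted. Cpt1a encodes the liver isoform of CPT1, the step that malonyl-CoA inhibits, and lies on chromosome 19 of mm10 from 3322334 to 3385733 on the plus strand. Its level was 58.4, 61.0, 59.0 and 64.1 CPM in the siERK3 libraries, against 25.2, 24.3, 26.1 and 24.2 CPM in the siNTC libraries. The siERK3 libraries all lay above the siNTC libraries, by more than the range within either group, with a log2FC of 1.28 (SE 0.06, edgeR adjusted p = 2.81e-14). Cpt1b encodes the muscle isoform, which is the more abundant one in brown fat and muscle, and was near the lower end of the table. It had 25, 26, 14 and 17 counts in the siERK3 libraries, against 24, 25, 33 and 28 counts in the siNTC libraries. The groups overlapped, and the log2FC of -0.51 (SE 0.22) did not pass the test (edgeR adjusted p = 0.0605). It passed with upper-quartile factors (adjusted p = 0.0326) and without siERK3 replicate 1 or 2 (adjusted p = 0.0459 and 0.0328), all from edgeR. The exons of Cpt1b are shared with Gm44502, a transcript that reads through it, for 81.4% of their length. Measured per kilobase of exon, Cpt1a was at 7.93 CPM in siERK3 and 3.26 CPM in siNTC adipocytes, and Cpt1b at 0.595 CPM in siERK3 and 0.851 CPM in siNTC adipocytes.

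The promoter of Cpt1a is shown because this gene had the highest fold change of the 32. It spans chr19:3323051-3323350 on the plus strand of GRCm38.p6, the assembly also called mm10, as given by RefSeq, from 250 bases before to 50 bases after the start of transcription. The GENCODE annotation, used for the span of the gene above, starts Cpt1a earlier, at 3322334. Positions in this window refer to the RefSeq start. Capitals mark TGACCT, the reverse complement of AGGTCA, the hexamer that nuclear receptors of the PPAR and RXR kind bind in pairs.
Cpt1a promoter: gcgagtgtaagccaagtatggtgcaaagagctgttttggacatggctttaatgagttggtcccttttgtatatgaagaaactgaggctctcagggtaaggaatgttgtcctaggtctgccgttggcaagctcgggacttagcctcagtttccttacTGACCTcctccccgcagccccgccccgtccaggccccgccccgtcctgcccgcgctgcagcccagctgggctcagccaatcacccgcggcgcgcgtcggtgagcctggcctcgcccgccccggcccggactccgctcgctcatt
The letters AGGTCA, searched on both strands, occur once there, 94 bases before the start. Among the 30 promoter windows that RefSeq gives for 27 of the 32 genes, 4 (13.3%) hold these letters, those of Cpt1a, Acadm, Acadvl and Scp2, against 16.3% of all 32851 promoter windows of the same length. Another 6 motifs were searched on both strands. The letters of the NRF1 motif were found in 2 of the 30 windows (6.67%), those of Acad10 and Etfdh, against 0.97% of all windows, and CCGGAAG, of GABPA, in 3 (10%), those of Cpt2, Pex11a and Slc25a20, against 8.86%. None of the 30 windows held the paired form (AGGTCA repeated after any 1 base), the ERR element (TCA followed by AGGTCA), the FOXO letters GTAAACA, or the core of the interferon element (TTTC repeated after any 2 bases). These occur in 0.04, 0.42, 3.65 and 3.44% of all windows. With 30 windows, these shares are a description. The median GC content was 60.5% over the 30 windows and 52.7% over all windows.

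The remaining genes of the shuttle were lower in siERK3 adipocytes. Crat, carnitine acetyltransferase, which buffers acetyl-CoA as acetylcarnitine, was at 342, 365, 378 and 363 CPM in the siERK3 libraries, against 521, 493, 549 and 520.5 CPM in the siNTC libraries, with no overlap. Its log2FC was -0.52 (SE 0.05, edgeR adjusted p = 1.18e-08). Slc25a20, the carnitine-acylcarnitine carrier, was at 17.6 to 23.4 CPM in siERK3 and 24.2 to 27.5 CPM in siNTC libraries, a log2FC of -0.33 (edgeR adjusted p = 0.00245). Cpt2, the inner membrane enzyme, was at 160.1 to 172 CPM in siERK3 and 173 to 201 CPM in siNTC libraries, and fell by 0.19 on the log2 scale (edgeR adjusted p = 0.00603). The call of Cpt2 was lost when only library sizes were used (adjusted p = 0.107).

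**Figure D3:**
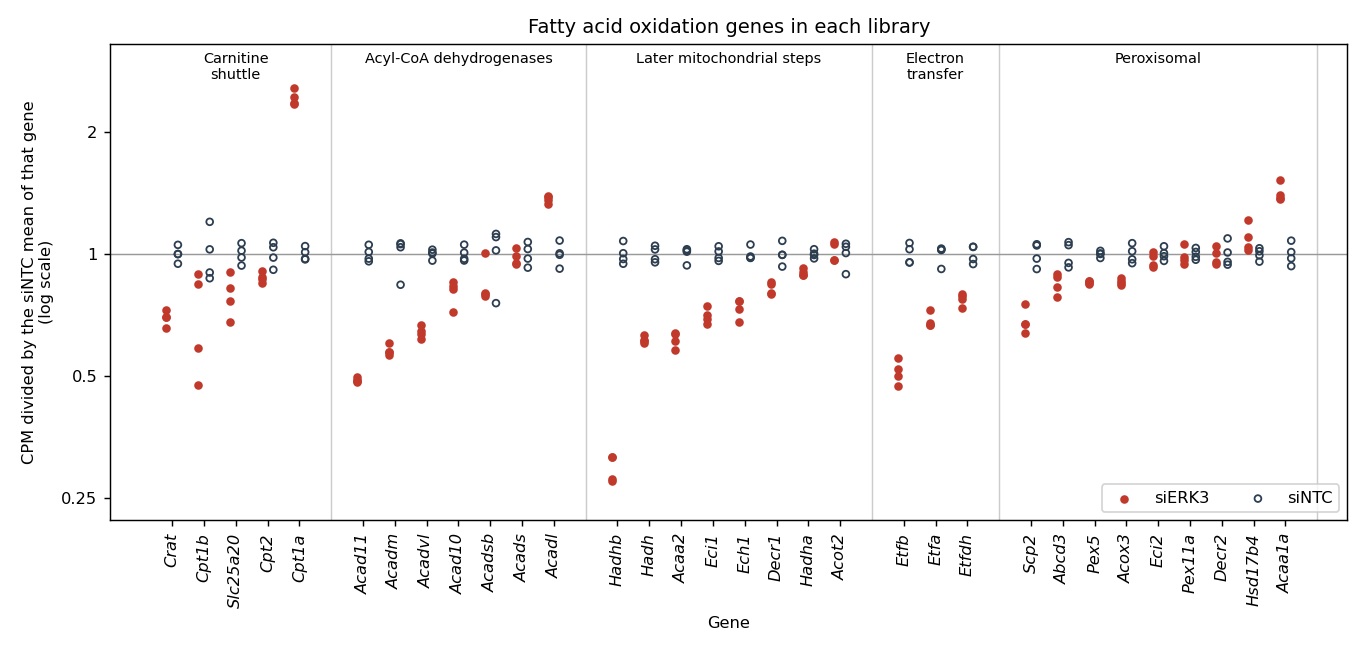
CPM of each of the 32 genes in every library relative to that gene's siNTC mean, on a log scale; filled points are the 4 siERK3 libraries and open points the 4 siNTC libraries. The siERK3 points of Hadhb lie lowest and those of Cpt1a highest, and for 24 genes the points of the groups do not overlap.

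The acyl-CoA dehydrogenase family holds the enzymes of the first mitochondrial step, each for a range of chain lengths. Acad11 is grouped here by family, whatever the place of its product in the cell, and is not counted among the peroxisomal genes. Of these dehydrogenases, Acad11, for very long chains, fell most. Its level was 85.8, 87.0, 88.5 and 86.6 CPM in the siERK3 libraries, against 188, 171, 173 and 180.1 CPM in the siNTC libraries. The siERK3 libraries lay close together and far below every siNTC library, with a log2FC of -1.03 (SE 0.05, edgeR adjusted p = 5.07e-14). Acadm, the medium-chain enzyme, was at 200.5, 187, 191 and 191 CPM in the siERK3 libraries, against 353, 346, 279.9 and 354 CPM in the siNTC libraries. SiNTC replicate 3 lay below the other 3 siNTC libraries and still above every siERK3 library. The log2FC was -0.79 (SE 0.06, edgeR adjusted p = 4.01e-10), and without siNTC replicate 3 it was -0.87.

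Acadvl, the very long chain enzyme bound to the inner membrane, was at 158 to 172 CPM in siERK3 and 248 to 264 CPM in siNTC libraries, a log2FC of -0.64 (edgeR adjusted p = 1.88e-10). Exons of Dvl2 on the other strand cover 42.9% of its exon length, and as the NEBNext Ultra libraries carry no strand information, reads of the pair cannot be told apart. Dvl2 had a log2FC of -0.56. Acadl, the long-chain enzyme, went the other way. It was at 229, 239, 235 and 238 CPM in the siERK3 libraries, against 171, 158, 173 and 186 CPM in the siNTC libraries. Every siERK3 library was above every siNTC library, and the log2FC was 0.45 (SE 0.05, edgeR adjusted p = 2.25e-07). The enzymes of long chains thus moved in both directions, with Acadl higher and Acadvl and Acad11 lower.

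Acad10, a dehydrogenase family member fused to other domains, was at 47.3 to 56.2 CPM in siERK3 and 63.3 to 69.3 CPM in siNTC libraries (log2FC -0.31, edgeR adjusted p = 0.000212). It shares 16.8% of its 50-base stretches with Acad12, which had a log2FC of -0.34. Acads, the short-chain enzyme, was at 125 to 138 CPM in siERK3 and 123 to 142 CPM in siNTC libraries, and its log2FC of -0.03 (SE 0.06) did not pass the test (edgeR adjusted p = 0.691). For Acadsb, which acts on short branched chains from isoleucine, the call was marginal. Its level was 132, 134, 131 and 168 CPM in the siERK3 libraries, against 183, 187, 126 and 169.9 CPM in the siNTC libraries, so that the groups overlapped. The log2FC was -0.24 (SE 0.09, edgeR adjusted p = 0.0404). This call was lost with DESeq2 (adjusted p = 0.2003), with limma-voom (adjusted p = 0.0545), with library sizes only (adjusted p = 0.187), and without siERK3 replicate 1, 2 or 3 or siNTC replicate 1, 2 or 4 (edgeR adjusted p = 0.0884 to 0.136).

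The later mitochondrial steps held the largest fall. Long-chain intermediates are hydrated, oxidized and cleaved by the trifunctional protein, whose alpha subunit is encoded by Hadha (hydratase and dehydrogenase) and whose beta subunit is encoded by Hadhb (thiolase). The genes lie next to each other on chromosome 5 and are transcribed away from each other, Hadha from the minus strand (30118304 to 30155162) and Hadhb from the plus strand (30155248 to 30184593). Hadhb was at 41.7, 41.7, 36.3 and 36.9 CPM in the siERK3 libraries, against 133, 125, 128 and 142 CPM in the siNTC libraries. In counts this was 373 to 432 per siERK3 library and 1211 to 1353 per siNTC library. The log2FC was -1.75 (SE 0.06, edgeR adjusted p = 6.47e-17), number 58 from the lowest of the 17972 genes tested. Hadha was at 323, 323, 336 and 329 CPM in the siERK3 libraries, against 373, 364, 354 and 361 CPM in the siNTC libraries. The groups did not overlap, but the log2FC was only -0.15 (SE 0.05, edgeR adjusted p = 0.0117) and it no longer passed with library sizes only (edgeR adjusted p = 0.283).

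The shared promoter is shown because the products of its genes form 1 complex while their transcripts changed unequally. The window of Hadhb spans chr5:30155003-30155302 on the plus strand of GRCm38.p6 as given by RefSeq, and capitals mark the 228 bases that also lie in the window of Hadha. The starts given by RefSeq are 273 bases apart. In the GENCODE annotation they lie closer together, at 30155162 for Hadha and 30155248 for Hadhb.
Hadhb promoter: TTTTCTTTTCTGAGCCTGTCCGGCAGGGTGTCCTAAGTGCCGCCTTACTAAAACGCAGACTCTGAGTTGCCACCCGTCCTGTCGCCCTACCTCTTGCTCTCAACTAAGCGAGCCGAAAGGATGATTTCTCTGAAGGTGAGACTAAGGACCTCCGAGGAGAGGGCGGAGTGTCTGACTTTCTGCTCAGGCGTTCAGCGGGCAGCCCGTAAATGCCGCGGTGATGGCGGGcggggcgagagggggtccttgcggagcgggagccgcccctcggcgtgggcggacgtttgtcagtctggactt

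Reads of Hadhb can also be counted elsewhere. Gm13910 is a processed pseudogene on chromosome 2 (108948806 to 108950233), and 89.1% of the 50-base stretches of its sequence occur in Hadhb transcripts. It held 652, 690, 668 and 725 counts in the siERK3 libraries, against 2567, 2276, 2374 and 2578 counts in the siNTC libraries, more than Hadhb itself in every library. Its log2FC was -1.93 (SE 0.06, edgeR adjusted p = 3.97e-18), so both entries fell by similar amounts. How many of its reads come from Hadhb cannot be told from the counts.

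The other enzymes of these steps fell less. Hadh, the dehydrogenase for medium and short chains, was at 129.7 to 136 CPM in siERK3 and 205 to 226 CPM in siNTC libraries (log2FC -0.70, edgeR adjusted p = 5.88e-11). Acaa2, the thiolase of medium chains, was at 70.1 to 77.4 CPM in siERK3 and 114 to 125 CPM in siNTC libraries (log2FC -0.70, edgeR adjusted p = 2.26e-10). Both thus fell to a similar degree. Eci1, Decr1 and Ech1 encode auxiliary enzymes that bring the double bonds of unsaturated fatty acids into line. They had log2FC values of -0.51, -0.28 and -0.44 (edgeR adjusted p = 5.85e-08, 0.000159 and 3.19e-07), and none of the 3 had overlapping groups. Ech1 is placed here for its mitochondrial form, although the protein is also found in peroxisomes. Acot2, a thioesterase that releases fatty acids from CoA, was at 46.1 to 51.2 CPM in siERK3 and 42.6 to 50.6 CPM in siNTC libraries, with a log2FC of 0.02 (SE 0.06, edgeR adjusted p = 0.796). It shares 24.6% of its 50-base stretches with Acot1.

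The electron transfer genes were all lower. Etfb, the beta subunit of ETF, was at 167, 142, 157 and 150.4 CPM in the siERK3 libraries, against 287, 287, 309.7 and 321 CPM in the siNTC libraries. That is a log2FC of -0.97 (SE 0.06, edgeR adjusted p = 1.46e-12), the third lowest of the 32. Per kilobase of exon Etfb had the highest level of the 32, at 133 CPM in siERK3 and 259 CPM in siNTC adipocytes. The overlapping gene Gm45233, on the same strand, covers 53.0% of its exons and held 100.4% of its counts in both groups, so the entries largely hold the same reads. Etfa, the alpha subunit, was at 131, 120.2, 120.2 and 121 CPM in the siERK3 libraries, against 185, 184, 165 and 184 CPM in the siNTC libraries. The log2FC was -0.54 (SE 0.05, edgeR adjusted p = 1.47e-08). Etfdh, the dehydrogenase that passes the electrons of ETF to ubiquinone, was at 102 to 111 CPM in siERK3 and 131 to 144 CPM in siNTC libraries, with a log2FC of -0.37 (edgeR adjusted p = 4.03e-06).

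Peroxisomal genes were mixed. Acaa1a, the peroxisomal thiolase, rose. It was at 186, 185, 206 and 189 CPM in the siERK3 libraries, against 132, 126, 137 and 146 CPM in the siNTC libraries, without overlap, a log2FC of 0.50 (SE 0.06, edgeR adjusted p = 8.94e-08). Its exons overlap those of Myd88 on the other strand for 6.57% of their length, and Myd88, an adaptor of innate immune receptors, rose by 0.71 on the log2 scale. Counts of Myd88 were 33.6% of those of Acaa1a in siERK3 and 29.0% in siNTC libraries. A near copy of the thiolase gene, Acaa1b, shares 12.4% of its 50-base stretches and had a log2FC of 0.16 (edgeR adjusted p = 0.0737). Scp2, which encodes a thiolase for branched chains and a sterol carrier protein, was at 219.9, 232, 231 and 259.9 CPM in the siERK3 libraries, against 364, 336, 316 and 362 CPM in the siNTC libraries. Its log2FC was -0.55 (SE 0.06, edgeR adjusted p = 5.12e-08). The pseudogene Scp2-ps2, which shares 29.7% of the stretches of Scp2, had a log2FC of -0.72.

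Smaller falls were seen for 3 further peroxisomal genes. These were Abcd3, a membrane transporter that imports acyl-CoA (log2FC -0.24, adjusted p = 0.00228), Acox3, the oxidase of branched chains (-0.23, adjusted p = 0.0011), and Pex5, the receptor that imports matrix proteins (-0.23, adjusted p = 0.000393), all from edgeR. Pex5 was held most tightly within groups, at 119 to 121 CPM in siERK3 and 138 to 144 CPM in siNTC libraries. Hsd17b4, the multifunctional hydratase and dehydrogenase of peroxisomes, was at 446, 407, 383 and 377 CPM in the siERK3 libraries, against 375, 353, 381 and 366 CPM in the siNTC libraries. The groups overlapped, and the log2FC of 0.13 (SE 0.06) did not pass the test (edgeR adjusted p = 0.0598). It passed with library sizes only (adjusted p = 0.00291), with limma-voom (adjusted p = 0.0451), with the replicate number as a block (edgeR adjusted p = 0.0469) and without siERK3 replicate 3 or 4 or siNTC replicate 3 (edgeR adjusted p = 0.0448, 0.0256 and 0.0408). Decr2, the peroxisomal dienoyl-CoA reductase, Eci2, an enoyl-CoA isomerase, and Pex11a, which promotes the division of peroxisomes, had log2FC values of -0.02, -0.05 and -0.02 (SEs 0.06, 0.05 and 0.05, edgeR adjusted p = 0.853, 0.489 and 0.812).

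Ratios between related genes within a library are free of the scaling between libraries. For 6 pairs of isoforms, subunits or related enzymes, the log2 ratio of counts was compared between the groups, and all 6 pairs were without overlap. Each pair holds at least 1 gene whose own CPM groups did not overlap, so the pairs partly restate the single genes. Among all genes tested, 43.2% did not overlap singly, and the share for pairs of genes was not computed. The exact permutation test, two-sided, gave p = 0.0286 for each, which is the lowest value 4 libraries against 4 can reach and also the value after adjustment over the 6 pairs. There were 0.129, 0.129, 0.108 and 0.112 counts of Hadhb per count of Hadha in the siERK3 libraries, against 0.356, 0.344, 0.363 and 0.394 in the siNTC libraries. The difference of the log2 ratios was -1.61 (SE 0.08), and -1.72 with the counts of Gm13910 added to Hadhb. For Etfb over Etfa the difference was -0.42 (SE 0.07). For Cpt1b over Cpt1a it was -1.82 (SE 0.24), a ratio that rests on 14 to 33 counts of Cpt1b per library.

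The remaining 3 pairs set a gene listed here as peroxisomal against the gene of a related mitochondrial enzyme, and the gene listed as peroxisomal gained in each. There were 2.41, 2.49, 2.66 and 2.70 counts of Acaa1a per count of Acaa2 in the siERK3 libraries, against 1.07, 1.11, 1.11 and 1.17 in the siNTC libraries, a difference of 1.20 (SE 0.05) on the log2 scale. Eci2 gained on Eci1 by 0.46 (SE 0.06) and Decr2 on Decr1 by 0.26 (SE 0.06). In the pairs of Eci and Decr, the mitochondrial gene was lower and the peroxisomal gene was not called.

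**Figure D4:**
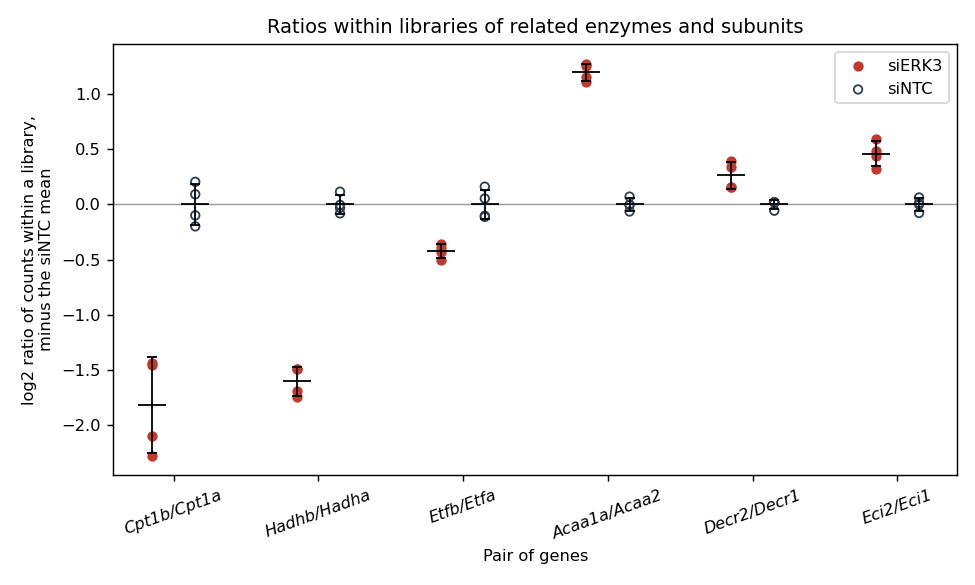
Log2 ratio of the counts of 2 related genes within each library, minus the mean of the siNTC libraries, for 6 pairs; points are the 4 libraries of each group and bars the mean and SD. Hadhb/Hadha lies at -1.61 and Acaa1a/Acaa2 at 1.20 in the siERK3 libraries relative to the siNTC mean, and no pair has overlapping groups.

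Other genes of the pathway were taken from fixed lists. Their counts stand beside 23.8% lower and 24.9% higher among all genes tested. Of 19 further genes of mitochondrial acyl-CoA metabolism, 13 were lower and 2 were higher. Acsl1, the acyl-CoA synthetase that supplies adipocytes with long-chain acyl-CoA, was at 1792 ± 11.9 CPM in siERK3 and 4898 ± 260.1 CPM in siNTC adipocytes (SD, n = 4 each; log2FC -1.45, edgeR adjusted p = 5.25e-17). Ivd, of leucine breakdown, fell by 0.33 on the log2 scale, while Acacb, whose product malonyl-CoA inhibits CPT1, rose by 0.56 (edgeR adjusted p = 5.07e-06 and 1.76e-08). Slc22a5, the plasma membrane carnitine transporter, had overlapping groups and a log2FC of 0.18 (edgeR adjusted p = 0.0213). Higher genes of this list numbered 1 in place of 2 with upper-quartile factors, with DESeq2, and without siERK3 replicate 1, 2 or 3 or siNTC replicate 2.

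Of 16 further peroxisomal enzymes and transporters, 7 were lower and 5 were higher. Cat, catalase, fell by 0.32 on the log2 scale (edgeR adjusted p = 2.88e-05). On the other side, Acsl4, an arachidonate-preferring synthetase, and Crot, carnitine octanoyltransferase, which exports shortened chains from peroxisomes, had log2FC values of 0.40 and 0.66 (edgeR adjusted p = 0.000145 and 3.59e-09). Of 14 further peroxins, 7 were lower and 0 were higher, among them Pex13 (log2FC -0.13) and Pex6 (-0.57). In either direction, 50% of these peroxins were called, near the 48.7% of all genes tested. With library sizes only, 4 peroxins were lower and 1 was higher.

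Transcriptional regulators of the pathway were lower in 9 of 13 cases and higher in 0. Pparg, the master regulator of adipocytes, changed little (log2FC -0.13, edgeR adjusted p = 0.0385), and Lpin1, which also makes diacylglycerol, was at 201 ± 9.66 CPM in siERK3 and 415 ± 14.3 CPM in siNTC adipocytes (SD, n = 4 each; log2FC -1.05, edgeR adjusted p = 4.34e-14). With library sizes only, 4 regulators were lower and 1 was higher.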

How the data were processed

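Raw counts were deposited by the authors in 1 matrix, in which every gene was above 1 CPM in at least 4 libraries, and a table of their own edgeR comparison (fold changes, average levels and p-values), which was not used. Their processing notes name bcl2fastq, FastQC, Bowtie2, edgeR and mm10; the counting program, annotation and strand setting are not given in the sources used here. Bowtie2 reads from near copies can be split between genes.

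Counts were tested in R 4.3.3 with edgeR 4.0.16 (filterByExpr defaults, minimum count 10, minimum total 15; TMM; quasi-likelihood test, no covariate) over all 17972 genes passing the filter, with Benjamini-Hochberg adjustment. The common biological coefficient of variation was 6.08%. Totals of 9854522 to 9943572 counts per library set the precision. No 2 replicates agreed within sampling noise (chi-square per gene 1.97 to 8.30). Alternatives were DESeq2 1.42.0, limma-voom (limma 3.58.1), RLE or upper-quartile factors, library sizes only, no filter, 5 CPM in at least 4 libraries, a replicate block, and leaving out each library. Ratios of counts, with 0.5 added to both genes, were tested exactly (Python 3.11.15, scipy 1.17.1). Coordinates, overlaps and shared 50-base stretches come from GENCODE M21 (18050 of 18088 IDs matched), promoters from RefSeq.

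Genes named are the 32 members, Mapk6 and, of each further list, the 2 most abundant called genes per direction, except 1 that is not reported here. The members and lists were chosen with earlier results of these data known. Hacl1 labels 2 entries, of which ENSMUSG00000021884 was used. The test was checked on simulated data, where it recovered 42% of 1.25-fold, 79.6% of 1.5-fold and 95.9% of 2-fold changes. It called 164 genes there, against 8745 in these data, so these shares need not hold here.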

Additional observations from a re-analysis of the deposited data

Results flagged for a closer look

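In 6 of 64 groups of 4 values, 1 library lay far outside the rest; by chance about 3.2 of the 64 groups would. In siNTC replicate 3, Acadm was at 279.9 CPM (346 to 354 CPM in the other siNTC libraries), Etfa at 165 CPM (184 to 185 CPM) and Ech1 at 198 CPM (184 to 185 CPM). Acaa2 was at 114 CPM in siNTC replicate 2 (123 to 125 CPM). Acadsb was at 168 CPM in siERK3 replicate 4 (131 to 134 CPM in the other siERK3 libraries), and Etfa at 131 CPM in siERK3 replicate 1 (120.2 to 121 CPM). In siNTC replicate 3, Acadm and Etfa were the lowest of their group and Ech1 the highest, so that library did not deviate in 1 direction.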

How the results depend on the processing

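Of the 32 genes, 22 (3 higher and 19 lower) kept their direction and their side of the threshold under all 16 alternatives. Leaving out 1 library gave 21 to 22 lower and 3 to 4 higher genes of the 32. With library sizes only, 19 of the 32 were lower and 4 higher, and with upper-quartile factors, 23 were lower and 3 higher. Library sizes only moved the median log2FC of all genes by 0.09 and upper-quartile factors by -0.07, and gave 5849 higher and 3139 lower, and 3556 higher and 5394 lower, of all genes (4470 higher and 4275 lower as reported). With library sizes only, Acads, Decr2, Eci2 and Pex11a turned to 0.0572, 0.0715, 0.0388 and 0.0691, and with upper-quartile factors Acot2 turned to -0.0470, none of them called in either. When 1 library was left out, 4 of these genes spanned 0, within -0.0655 to 0.0044 (Acads), -0.0441 to 0.0291 (Decr2), -0.0524 to 0.0073 (Pex11a) and -0.0282 to 0.0521 (Acot2), while Eci2 stayed at -0.0708 to -0.0262. Called higher peroxisomal genes became 2, with Hsd17b4, with library sizes only, with limma-voom and with the replicate block, and were 1 to 2 without 1 library. Called higher genes of the further mitochondrial list became 1 with upper-quartile factors and with DESeq2, and were 1 to 2 without 1 library, and called higher regulators were 0 to 1. With library sizes only, further peroxins became 4 lower and 1 higher and regulators 4 lower and 1 higher. The replicate numbers are not stated to mark a shared batch, and deviations of same-numbered libraries correlated at -0.02 to 0.06. Only replicate 3 matched its own number best in both directions. No pairing by number was evident, but correlations this low cannot settle whether the numbers pair the libraries. With the replicate block, 4501 genes were higher and 4292 lower, and among the 32 only Hsd17b4 changed its call (edgeR adjusted p = 0.0469). The ratios of the 6 pairs kept their direction without any 1 library and without the added 0.5 count, but 3 libraries against 4 cannot pass the exact test, and the addition of Gm13910 or Acaa1b, chosen after seeing the data, gave -1.72 and 1.13 for Hadhb/Hadha and Acaa1a/Acaa2. Depth limits Cpt1b, at 14 to 33 counts per library, and it has no value with 5 CPM in at least 4 libraries.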

Other observations

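The following genes of the further lists were chosen after their values were seen. The enzymes that turn propionyl-CoA, the last product of odd and branched chains, into succinyl-CoA were all lower. Pccb, a subunit of propionyl-CoA carboxylase, was at 55.4 ± 0.78 CPM in siERK3 and 112 ± 2.00 CPM in siNTC adipocytes (SD, n = 4 each), a log2FC of -1.02, while Pcca, the other subunit, fell by 0.36 (edgeR adjusted p = 6.42e-14 and 4.38e-05). Mcee and Mut, the epimerase and mutase that follow, had log2FC values of -0.62 and -0.53 (edgeR adjusted p = 2.88e-06 and 8.12e-07). As for Hadhb with Hadha and Etfb with Etfa, the beta subunit had the larger fall of the pair; the difference for Pccb and Pcca was not tested.

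Abcd2, an ABC transporter of the peroxisomal membrane, was at 64.6 ± 5.96 CPM in siERK3 and 91.2 ± 11.9 CPM in siNTC adipocytes (SD, n = 4 each), with a log2FC of -0.50 (edgeR adjusted p = 1.40e-05). Among the regulators, Ppargc1b, a coactivator of mitochondrial genes, fell by 0.82 and Esrra, the nuclear receptor it acts with, by 0.41 on the log2 scale (edgeR adjusted p = 2.07e-09 and 5.57e-06).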
